A study of Homo sapiens with 108 samples.

Results

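The mRNAs of the large ribosomal subunit proteins were followed in HEK293T, an established line derived from human embryonic kidney. Members were the protein-coding genes with the symbol RPLP0, RPLP1 or RPLP2, or with RPL followed by a number and an optional A, L or X suffix, without pseudogenes. They numbered 53 of the 19761 genes in the tables, and 51 of them had reads in NT. RPL3L and RPL10L, paralogues that are known from muscle and testis, had no read in NT and were not tested for level. Lentivirus delivered a short hairpin RNA to the cells, which were then selected with puromycin. The hairpin was directed at ZFP36L1, CNOT4, PHF7, MAZ, ZMAT5, ZNF706, ZMAT3 or BRCA1, and the control hairpin was non-targeting (NT). Arms are pools of selected cells, and the submitters checked knockdown by qPCR, whose values were not used here. All arms, NT included, were fed 10 µM 4-thiouridine (4SU) for 24 h, with new medium every 8 h. A chase with 1 mM uridine followed and lasted 0, 2, 4 or 8 h. With 3 biological replicates per arm and chase time there were 12 libraries per arm and 108 in all. In SLAM-seq, alkylated 4SU is read as C, so the share of covered T positions read as C, here the T>C rate, measures how much of an mRNA was made during labelling. All 8 comparisons share the NT libraries.

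Each ribosome needs 1 copy of nearly every ribosomal protein, and the mRNAs that encode them are among the most abundant of a growing cell. They are known to be long lived and to begin with a terminal oligopyrimidine (TOP) tract, a C followed by a run of C and T at the transcription start. Through that tract, LARP1 and mTOR control how far these mRNAs are translated. The large subunit holds the peptidyl transferase centre and the exit tunnel, and the P proteins RPLP0, RPLP1 and RPLP2 form its stalk, where elongation factors bind. Many members have processed pseudogenes that are nearly identical to them, so short reads often map to several places.

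RefSeq start-site windows (GRCh38.p14) were found for 43 of the 53 members. A C at the annotated start followed by at least 4 bases that are C or T was present at a start of 29 of those 43 genes (67.4%), 19 of 26 small subunit genes (73.1%) and 962 of 15127 genes of the tables with an entry (6.36%). The search read the transcribed strand only. The 6 windows below belong to RPL21, RPL36A and RPLP1, which were named in 3 or 4 knockdowns, and to 3 of the members named in 2, taken in order of symbol. They show the 10 bases before the start and the first 20 transcribed bases, with the tract that begins at the start in capitals.
RPL21 (chr13:27251548-27251577, plus strand): ccgcctctttCCTTTCggccggaaccgcca
RPL36A (chrX:101391001-101391030, plus strand): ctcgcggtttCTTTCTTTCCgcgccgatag
RPLP1 (chr15:69452808-69452837, plus strand): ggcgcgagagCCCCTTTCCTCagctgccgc
RPL10A (chr6:35468391-35468420, plus strand): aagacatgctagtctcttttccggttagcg
RPL11 (chr1:23691796-23691825, plus strand): gctccgctttCTCTTCCTgctctccatcat
RPL12 (chr9:127451387-127451416, minus strand): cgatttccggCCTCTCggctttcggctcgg
At the RPL10A entry the annotated start lies before a pyrimidine run rather than on it, so no capitals are shown. A window says only which letters stand at an annotated start, not which start these cells used.

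Libraries held 63659 to 30750027 reads in 3′ UTRs. The shallowest were PHF7 8 h replicate 3, with 63659, and CNOT4 2 h replicate 3, with 1781724. Libraries of CNOT4 and ZFP36L1 covered fewer T positions per read, 27.7 to 34.0 and 25.9 to 33.0, against 37.1 to 37.8 in NT. The targeted mRNA stood at 12.2% of NT in MAZ, 10.4% in ZMAT5, 24.9% in ZMAT3 and 49.0% in ZNF706 cells, each called. It stood at 53.5% in BRCA1 (edgeR adjusted p = 0.22), 23.8% in PHF7 (adjusted p = 0.35) and 97.3% in CNOT4 cells (adjusted p = 0.95). The libraries labelled ZFP36L1 had 174% of the NT level of ZFP36L1 mRNA (adjusted p = 0.0024), which goes against their label in these libraries. Summed reads of 13 marker genes of other cell types had a median of 17.9 to 28.1 CPM (counts scaled to equal library totals) in the knockdown arms and 22.1 CPM in NT. Of the HEK293T markers, LIN28B, SALL2 and NEFM had NT medians of 79.0, 44.5 and 38.8 CPM, whereas PAX2 had a read in only 2 of 12 NT libraries.

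The share of all reads that fell in large subunit mRNAs differed between arms. It was 6.86% to 9.13% in ZFP36L1 libraries and 5.76% to 7.37% in the 9 CNOT4 libraries of the 0, 2 and 4 h chase, against 4.05% to 4.40% in NT, median 4.21%. The 3 CNOT4 libraries of the 8 h chase held 3.89% to 4.23% and overlapped NT. Every ZMAT5 library (4.53% to 5.25%) and every MAZ library (4.46% to 5.63%) lay above the NT range, and ZNF706 libraries held 4.39% to 5.78%. Every PHF7 library lay below NT, at 3.22% to 3.87%. BRCA1 (4.10% to 4.99%) and ZMAT3 libraries (3.66% to 4.65%) overlapped NT. Shares are relative to all reads, so fewer ribosomal protein mRNAs per cell and more of other mRNAs cannot be told apart.

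**Figure D1:**
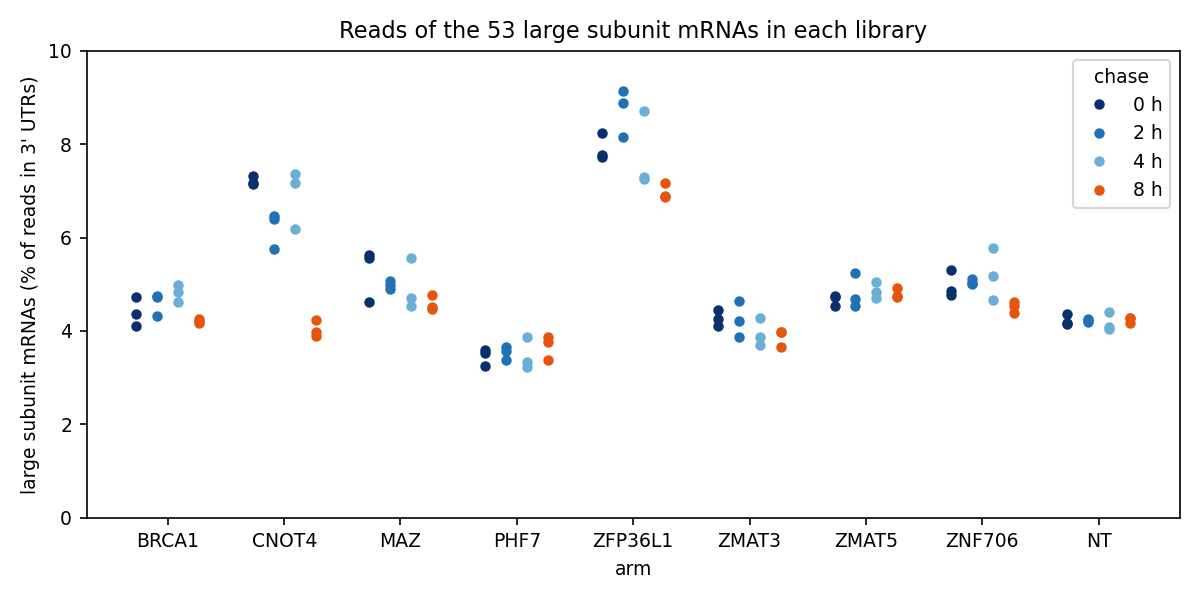
Share of 3′ UTR reads (%, y axis) that fell in the 53 large subunit mRNAs, for each library, by arm (x axis) and chase time (colour). ZFP36L1 libraries lie at 6.86% to 9.13%, and CNOT4 libraries lie at 5.76% to 7.37% up to 4 h and at 3.89% to 4.23% at 8 h, against 4.05% to 4.40% in NT.

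Many of these reads are not unique. In NT, 18.1% to 20.2% of the reads of the members were flagged as multimapped, against 6.66% to 6.91% of all reads. The share differed widely between members. It was over 50% in 9 members and under 1% in 21. Among the highest were RPL6 (99.8%, over only 27 counted bases), RPL41 (95.1%), which encodes the smallest ribosomal protein, RPL7 (80.4%) and RPL3 (80.0%), whose protein lies near the peptidyl transferase centre. For these mRNAs the reads of the gene and of its copies cannot be told apart. Counted 3′ UTR length ran from 27 to 7523 bases, median 762, and 6 members share counted bases with another gene on one or the other strand (RPL10, RPL17, RPL23A, RPL32, RPL35 and RPL36).

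In NT, RPL39, a small protein of the exit tunnel, had the highest median CPM of the members, 3007, range 2495 to 3362. Of its reads, 71.4% were multimapped. RPL5, which binds the 5S RNA together with RPL11, followed with 2442 to 3642, median 2989.5, and the ranges overlap. Of the RPL5 reads, 0.0992% were multimapped. Summed over the NT libraries, RPL5 had more reads than RPL39, 381022 against 378445. RPL11 itself had 77.3 to 125 CPM. These values are per mRNA with no correction for the counted length, so they are not an order of abundance between genes. RPL39L, the paralogue of RPL39, had a median of 21.2 CPM and at most 44.1 CPM.

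The libraries labelled ZFP36L1 held the most level calls: 41 of the 51 members tested rose and 1 fell, where 20.9% of the 12816 genes tested were called higher and 18.9% lower. The median log2 difference was 0.97 over the members and 0.13 over all genes. RPL17, whose protein lines the exit tunnel, had 226 to 520.2 normalised CPM in ZFP36L1 libraries, median 327, against 6.68 to 26.0 in NT, median 9.35 (log2 4.65, SE 0.23, edgeR adjusted p = 3.8e-18). RPL3 had 727 to 1238, median 859, against 32.2 to 65.4, median 43.3 (log2 4.29, SE 0.13, adjusted p = 1.9e-23). RPL36A had 981 to 2210.4, median 1397, against 51.7 to 158, median 83.2 (log2 4.06, SE 0.16, adjusted p = 1.8e-20). In all 3 mRNAs the lowest ZFP36L1 library lay above the highest NT library. RPL21 had 414 to 1188, median 717, against 39.7 to 81.3, median 56.3 (log2 3.72, SE 0.15, adjusted p = 1.5e-20). The member that fell was RPL36AL, a paralogue of RPL36A that encodes nearly the same protein, with 157 to 349.7 against 338 to 601 (log2 -0.96, SE 0.089, adjusted p = 6.5e-11).

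In the libraries labelled CNOT4, an E3 ligase that associates with the CCR4-NOT deadenylase complex, 29 of 51 members rose and 6 fell, where 12.6% of 12689 genes were called higher and 14.1% lower. The median was 0.38 over the members and 0.04 over all genes. RPL21 had 74.1 to 650.3 normalised CPM, median 459, against 41.7 to 85.5 in NT, median 59.7 (log2 2.42, SE 0.26, edgeR adjusted p = 1.2e-08). RPL10A had 282 to 931, median 759.6, against 102 to 201, median 143 (log2 2.11, SE 0.17, adjusted p = 6.2e-11). RPL37 had 321 to 871 against 149 to 259.6 (log2 1.72, SE 0.16, adjusted p = 9.6e-10). RPL21 overlapped NT, and RPL10A and RPL37 did not. The fallers were RPL5 (log2 -0.58), RPL22 (-0.51), RPL34 (-0.38), RPL36AL (-0.60), RPL39 (-0.39) and RPL39L (-1.52). RPL39 rested on multimapped reads: on reads not flagged as such, it was higher by 0.87 (adjusted p = 1.3e-05).

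**Figure D2:**
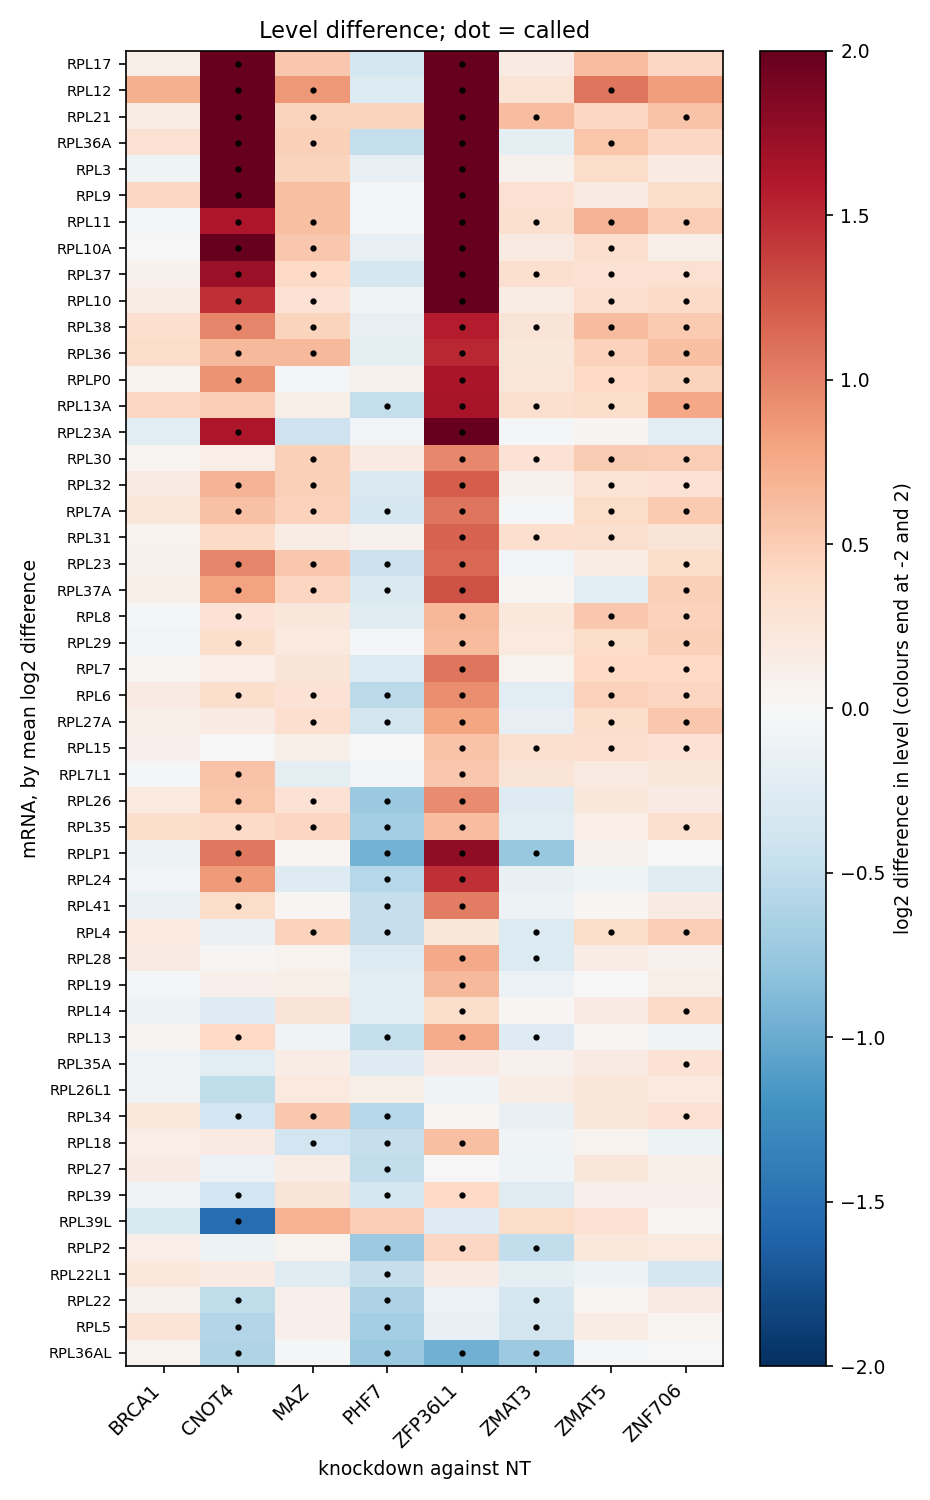
Difference in level of 50 of the 51 tested members (rows, ordered by mean difference) between a knockdown and NT (columns), on the log2 scale by colour, which ends at -2 and 2. Black dots mark calls: in PHF7 22 fell with none higher, and RPL36AL fell in CNOT4, PHF7, ZFP36L1 and ZMAT3.

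The CNOT4 difference depended on chase time. Of 51 members tested, 22 were called for this dependence, where 0.571% of the 13308 genes tested were called, and in all 22 the difference was lower at 8 h than at 0 h. Over the members the median difference was 0.75 at 0 h, 0.46 at 2 h, 0.62 at 4 h and -0.38 at 8 h. RPLP1 differed by 2.01, 1.40, 1.79 and -1.33 on the log2 scale at these times (SE 0.16 at 0 h and at 8 h, adjusted p = 3.3e-10 for dependence). RPL3 differed by 4.37, 4.04, 4.00 and -0.98 (SE 0.30 and 0.27, adjusted p = 1.9e-09), RPL36A by 4.51, 3.84, 4.23 and -0.24 (SE 0.34 and 0.30, adjusted p = 1.5e-07) and RPL26 by 1.19, 0.83, 0.93 and -0.78 (SE 0.14 and 0.14, adjusted p = 3.0e-07). The 8 h libraries of CNOT4 also differed in other ways: they covered 32.5 to 34.0 T positions per read against 27.7 to 31.3 at the earlier times, and 5.82% to 5.91% of their reads were multimapped against 9.35% to 11.9%. Their file headers also name the kind of labelling differently from those of the other libraries. On reads not flagged as multimapped, 14 members were called for dependence, 12 of them also called on all reads, where 0.404% of 12858 genes were called. RPLP1 (8 h minus 0 h -3.85, adjusted p = 5.5e-11) and RPL26 (-1.90, adjusted p = 3.3e-06) were called on those reads, whereas RPL3 (-3.77, adjusted p = 1) and RPL36A (-2.75, adjusted p = 0.083) were not. The part of T positions per read and of the labelling in the result was not tested. Without the 8 h libraries of both arms, 34 members rose and 3 fell in CNOT4. The share of all genes called in that fit is not given here. No member was called for dependence on chase time in the other knockdowns, where 0.0157% of genes were called in BRCA1 and 0% in MAZ, PHF7, ZFP36L1, ZMAT3, ZMAT5 and ZNF706. At an unadjusted p under 0.05 there were 10 members in BRCA1, 9 in MAZ, 0 in PHF7, 18 in ZFP36L1, 0 in ZMAT3, 6 in ZMAT5 and 5 in ZNF706. DESeq2 called 7 members in ZFP36L1 and 1 each in BRCA1 and ZMAT5. The CNOT4 count was 9 without replicate 1 and 14 without replicate 2 at each time. For the DESeq2 fits and those without a replicate, the share of all genes called is not given here.

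**Figure D3:**
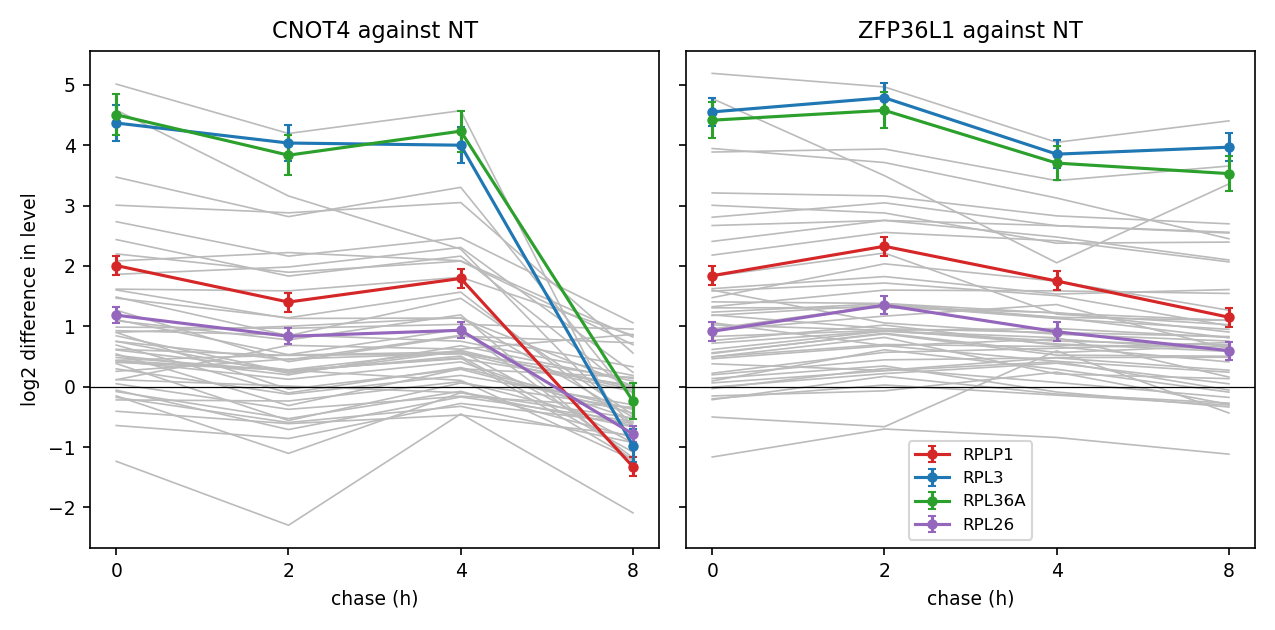
Level difference against NT (log2, y axis) at each chase time (h, x axis) in CNOT4 and ZFP36L1 libraries. Grey lines are the 51 members, coloured points with SE bars are RPLP1, RPL3, RPL36A and RPL26: RPL3 stood at 4.37 at 0 h and -0.98 at 8 h in CNOT4, and in ZFP36L1 it stood between 3.85 and 4.79.

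Multimapped reads moved with the rises in CNOT4 and ZFP36L1 in part of the members. In the same 8 members (RPL9, RPL10, RPL12, RPL13A, RPL17, RPL23A, RPL24 and RPL36A) the multimapped share was over 20 percentage points higher than in NT in both arms. RPL13A, a protein that also takes part in silencing of inflammatory mRNAs, had 83.7% multimapped reads in CNOT4 and 69.1% in ZFP36L1, against 7.14% in NT. The 8 members had a median log2 difference of 2.04 in CNOT4 and 2.95 in ZFP36L1, against 0.34 and 0.76 for the other 43. Across the 51 members, which share libraries, the change in multimapped share and the level difference had r = 0.49 in CNOT4 and 0.52 in ZFP36L1. RPLP0 and RPL41 were called higher in both arms with a lower multimapped share than in NT. It was 9.01% in CNOT4 and 10.7% in ZFP36L1 for RPLP0, against 28.9%. For RPL41 it was 83.4% and 83.0%, against 95.1%.

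When reads flagged as multimapped were left out, 22 members rose and 8 fell in CNOT4, and 38 rose and 1 fell in ZFP36L1. On all reads, 12.6% of genes were called higher and 14.1% lower in CNOT4, and 20.9% and 18.9% in ZFP36L1. The shares of all genes on unflagged reads are not given here. For single members the result depended strongly on those reads. RPL3 differed by 0.35 in CNOT4 (edgeR adjusted p = 0.75) and 1.47 in ZFP36L1 (adjusted p = 5.4e-04) on unflagged reads, against 3.24 and 4.29 on all reads. RPL21 differed by -0.24 in CNOT4 (adjusted p = 0.85) and 0.42 in ZFP36L1 (adjusted p = 0.59). In ZFP36L1, RPL17 was higher by 2.06 (adjusted p = 0.0020) and RPL36A by 1.67 (adjusted p = 2.3e-09) on unflagged reads, against 4.65 and 4.06 on all reads. RPL13A was lower in CNOT4 on unflagged reads, by -1.77 (adjusted p = 3.1e-12), and 0.49 on all reads. RPL11, with 0.118% multimapped reads in NT, was higher by 1.63 on unflagged and 1.62 on all reads in CNOT4, and by 2.67 and 2.66 in ZFP36L1. Among the 21 members under 1% in NT, 8 rose and 4 fell in CNOT4 and 14 rose and 1 fell in ZFP36L1.

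**Figure D4:**
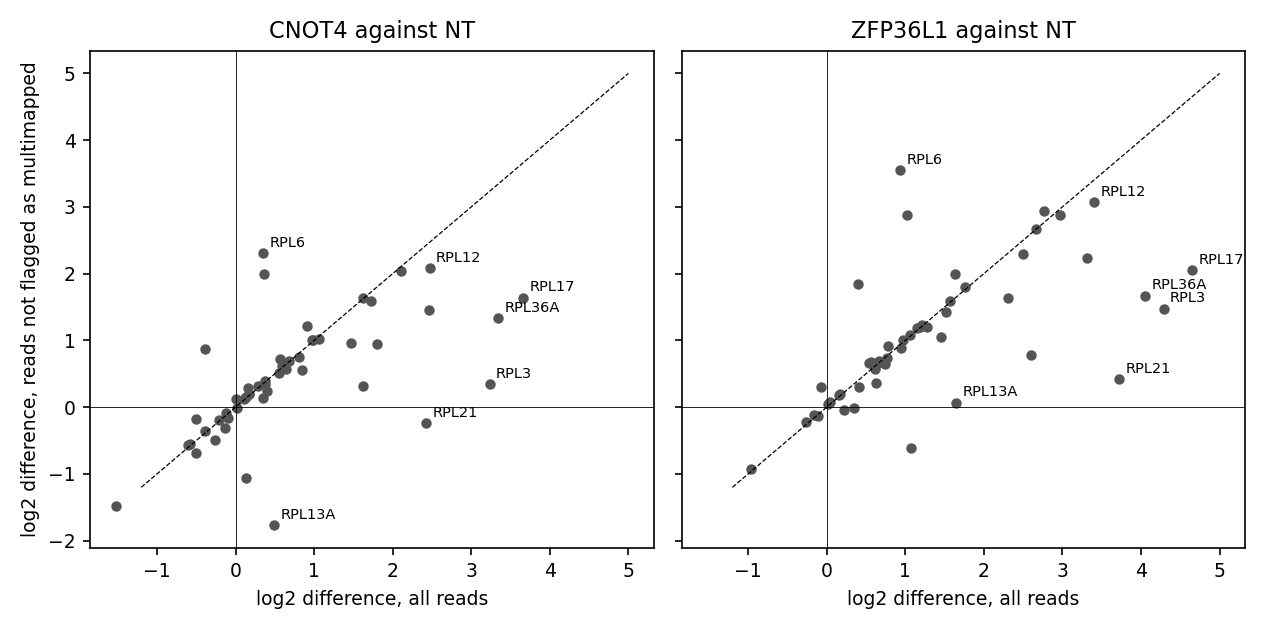
Level difference against NT on all reads (log2, x axis) and on reads not flagged as multimapped (y axis) for each of the 51 members in CNOT4 and ZFP36L1. Members on the dashed line changed by the same amount on both, while RPL21 went to -0.24 and RPL3 to 0.35 in CNOT4 on unflagged reads.

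PHF7 was the only arm in which members fell and none rose: 22 of 51 fell and 0 rose, where 4.64% of 12799 genes were called lower and 2.84% higher. The median was -0.29 over the members and 0.05 over all genes. RPLP1, of the stalk, had 81.3 to 656 normalised CPM, median 524, against 806 to 1418, median 941 (log2 -0.94, SE 0.14, edgeR adjusted p = 1.5e-05). RPL26 had 370.4 to 1066 against 1116 to 1572 (log2 -0.75, SE 0.10, adjusted p = 4.3e-06), and RPLP2, the partner of RPLP1 in the stalk, had 578 to 777 against 968 to 1622 (log2 -0.73, SE 0.082, adjusted p = 1.5e-07). None of the 3 overlapped NT. RPL36AL had 189.7 to 370.4 against 357 to 637 and overlapped (log2 -0.75, SE 0.099, adjusted p = 3.1e-06). RPL5 was lower by 0.68 (adjusted p = 2.3e-07). Without the shallow 8 h replicate 3, 24 members fell and 2 rose, and without replicate 2 at each time 10 fell.

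In MAZ cells, whose hairpin is directed at a zinc finger transcription factor, 21 members rose and 1 fell, where 4.78% of 12856 genes were called higher and 3.67% lower (median 0.26 over members, 0.07 over all genes). RPL36 had 743 to 1138 normalised CPM against 440.2 to 679.6 in NT (log2 0.64, SE 0.073, edgeR adjusted p = 7.5e-08), and the ranges did not overlap. RPL11 had 122 to 176 against 78.9 to 125 (log2 0.59, SE 0.096, adjusted p = 3.9e-05), and RPL10A had 127 to 258 against 96.1 to 192 (log2 0.54, SE 0.11, adjusted p = 5.6e-04). RPL12 had 19.5 to 45.5 against 1.65 to 51.3 (log2 0.87, SE 0.27, adjusted p = 0.036) and lost its call when any 1 replicate number was left out. RPL18 was the one that fell (log2 -0.38, SE 0.083, adjusted p = 0.0022). Without replicate 3 at each time 14 members were called, and RPL10A lost its call.

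In ZMAT5 cells, whose hairpin is directed at a protein of the minor spliceosome, 21 members rose and 0 fell, where 5.3% of 12611 genes were called higher and 4.39% lower (median 0.23 and 0.06). RPL11 had 124 to 184 against 78.3 to 123 in NT, without overlap (log2 0.68, SE 0.10, edgeR adjusted p = 7.8e-06). RPL38, whose loss in mice is known to alter Hox mRNA translation, had 379.7 to 609 against 249 to 419 (log2 0.63, SE 0.086, adjusted p = 1.3e-06). RPL12 had 24.2 to 49.4 against 1.63 to 50.7 (log2 1.08, SE 0.28, adjusted p = 0.0093). RPL36A had 90.6 to 164 against 51.7 to 157 (log2 0.55, SE 0.15, adjusted p = 0.011), and on unflagged reads its adjusted p was 0.089. RPL12 lost its call without replicate 1 or 2, and RPL36A without replicate 2 or 3.

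In ZNF706 cells 24 members rose and 0 fell, where 2.9% of 12508 genes were called higher and 2.38% lower (median 0.30 and 0.04). RPL13A had 794 to 1136 normalised CPM against 454 to 737 in NT, without overlap (log2 0.78, SE 0.067, edgeR adjusted p = 3.1e-10). RPL36 had 723 to 1233 against 434 to 673, also without overlap (log2 0.61, SE 0.075, adjusted p = 4.7e-07). RPL27A had 2226 to 3335 against 1633 to 2231 (log2 0.54, SE 0.058, adjusted p = 3.0e-08). RPL21 had 64.3 to 118 against 39.4 to 80.0 (log2 0.58, SE 0.15, adjusted p = 0.014), and on unflagged reads its adjusted p was 0.66. Its call was also lost when any 1 replicate number was left out. Without replicate 1 at each time 14 members rose.

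ZMAT3 cells, whose hairpin is directed at an RNA-binding protein that p53 induces, had calls in both directions: 8 members rose and 8 fell, where 4.81% of 12776 genes were called higher and 4.95% lower. The median was 0.02 over members and 0.08 over all genes. RPLP1 had 473 to 683 normalised CPM against 776 to 1367 in NT, without overlap (log2 -0.76, SE 0.071, edgeR adjusted p = 1.2e-09). RPLP2 had 635 to 1027 against 935 to 1563 (log2 -0.49, SE 0.077, adjusted p = 3.3e-05), and RPL36AL had 219.6 to 349 against 345 to 614 (log2 -0.73, SE 0.074, adjusted p = 7.2e-09). RPL5 was lower by 0.36 (adjusted p = 9.0e-05). RPL21 had 71.0 to 125 against 40.5 to 82.1 (log2 0.61, SE 0.14, adjusted p = 0.0029), with an adjusted p of 0.31 on unflagged reads and no call without replicate 3.

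In BRCA1 cells 0 of 51 members were called by edgeR, where 0.0411% of 12155 genes were called higher and 0.0411% lower. At an unadjusted p under 0.05 there were 12 of 51 members and 774 of 12155 genes. DESeq2 called 2 members higher, and edgeR without the low-count filter called 4. For both, the share of all genes called is not given here. The largest of the edgeR differences by p was RPL13A (log2 0.41, SE 0.095, adjusted p = 0.082).

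Across knockdowns, RPL11, RPL37 and RPL38 rose in 6 of the 8, and RPL36AL fell in 4 (CNOT4, PHF7, ZFP36L1 and ZMAT3) and rose in none. RPL5 and RPL22 fell in CNOT4, PHF7 and ZMAT3. The comparisons share the NT libraries, so these counts are not independent.

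Within NT no change in level over the chase was called. At 8 h against 0 h, 0 of 51 members and 0 of 11299 genes (0%) were called by edgeR, with 5 members and 528 genes at an unadjusted p under 0.05. DESeq2 called 1 member and 86 genes. The members' log2 differences ran from -0.74 to 1.05, with a median of -0.01.

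In NT the T>C rate of the members fell slowly over the chase. The tests for label used 49 members, those that exceeded 5 deposited CPM in 2 or more replicates of every chase time. RPL12 and RPL17 did not pass. The slope was negative in all 49, and in 7380 of the 7624 genes tested. Of the members, 23 were called for loss of label, where 49.5% of the 7624 genes were called. Leaving out 1 replicate gave 10 to 15, with 10 without replicate 1. Their median slope was -0.07 log2 units per hour, against -0.06 for the small subunit mRNAs and -0.29 for all genes, which is 4.73%, 4.07% and 18.1% of label lost per hour. At 8 h the members kept a median of 66.9% of their 0 h rate, small subunit mRNAs 67.2% and all genes 20.6%. Pooled over conversions, so that abundant mRNAs weigh more, the members kept 66.4% and all genes 35.7%. All libraries were fed 4SU, and no background rate was subtracted. T positions read as C for reasons other than label would count as kept label, and their part was not tested.

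Single members differed in how much label was left. RPL34 had 2.08%, 2.07% and 2.21% in the 3 NT libraries at 8 h, against 3.01%, 2.59% and 2.24% at 0 h. RPL23, a protein of the face that meets the small subunit, had 1.30%, 1.32% and 1.24% against 1.65%, 1.48% and 1.60%. RPL37 lost most of its label, with 0.526%, 0.362% and 0.371% at 8 h against 1.52%, 1.81% and 1.40% at 0 h. RPL36AL (slope -0.19, edgeR adjusted p = 1.1e-04) and RPL7L1 (slope -0.35, adjusted p = 2.7e-06) also lost label faster than the median member, and RPL15 had the smallest p of the members (slope -0.13, SE 0.014, adjusted p = 1.6e-06).

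A first-order curve gave a half-life for 35 of the 49 members. The median was 9.11 h over the members, 12.4 h over 13 of 31 small subunit mRNAs and 3.27 h over 5544 of 7618 genes. Curves of single replicates gave members' medians of 9.83, 9.18 and 5.72 h (8.25 ± 2.21 h, SD, n = 3). Values above 8 h lie beyond the chase, and the rates carry no background subtraction. Curves with a low R2, which include those of mRNAs that lost little label, give no half-life. The 5 longest were RPL34 (25.7 h), RPL23 (25.6 h), RPL5 (22.5 h), RPL27 (21.6 h) and RPL29 (18.1 h). The 5 shortest were RPL36A (1.88 h), RPL3 (2.64 h), RPL37 (3.33 h), RPL7 (3.46 h) and RPL21 (3.54 h). Of these, RPL36A, RPL3, RPL7 and RPL21 were not called for loss of label (edgeR adjusted p = 0.11, 0.36, 0.068 and 0.085). Among the longest, RPL34 and RPL23 were not called either (edgeR adjusted p = 0.083 and 0.14). Replicates could differ widely: RPL21 had 0.469%, 0.0254% and 0.709% in the NT libraries at 8 h. RPL3, RPL7 and RPL21 had 79.7% to 80.4% multimapped reads in NT and RPL37 had 3.12%, with RPL36A between them. The part of those reads in the half-lives was not tested. The 14 members without a half-life, whose curve had an R2 of 0.6 or less, included RPL8, RPL9, RPL11, RPL19, RPL26L1, RPL31, RPL32, RPL35, RPL36, RPL39, RPL39L, RPLP0 and RPLP1.

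**Figure D5:**
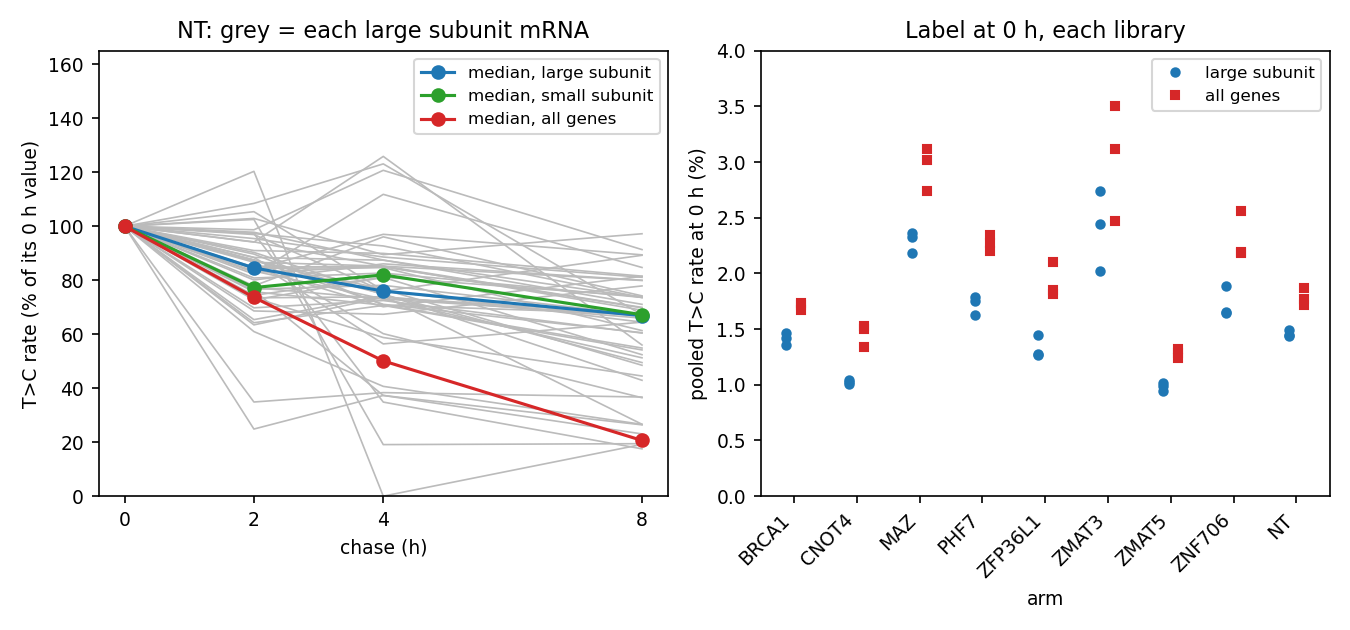
Left, T>C rate of each of the 49 members in NT (grey) over the chase (h), in % of its 0 h value, with medians of the large subunit, the small subunit and all genes. At 8 h the medians were 66.9%, 67.2% and 20.6%. Right, pooled T>C rate at 0 h (%) in each library, by arm, for 48 members and 6372 genes that passed in all arms.

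Before the chase, members were called for label in 3 arms. In MAZ cells 34 of 49 members had a higher T>C rate at 0 h, where 37.9% of 7458 genes were called higher. In ZMAT3 cells 31 of 49 were higher, where 30.7% of 7494 were, and in ZMAT5 cells 17 of 49 were lower, where 3.78% of 7307 were. The members' median log2 difference was 0.67 in MAZ, 0.69 in ZMAT3 and -0.57 in ZMAT5, against 0.84, 0.88 and -0.42 over all genes. RPL5 had 2.83%, 2.95% and 2.86% in MAZ libraries, against 1.60%, 1.57% and 1.71% in NT (log2 0.82, SE 0.073, edgeR adjusted p = 0.0034). RPL8 had 1.57%, 1.33% and 1.76% in ZMAT3 libraries, against 0.834%, 0.757% and 0.879% (log2 0.92, SE 0.18, adjusted p = 0.025). RPL39 had 0.809%, 0.799% and 0.900% in ZMAT5 libraries, against 1.30%, 1.32% and 1.23% (log2 -0.62, SE 0.079, adjusted p = 0.011).

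The other named calls were of like size. In MAZ, RPL41 differed by 0.72 and RPL15 by 0.66 (adjusted p = 0.0034 each). In ZMAT3, RPL27 differed by 0.85 and RPL39 by 0.77 (adjusted p = 0.025 each). In ZMAT5, RPL41 differed by -0.68 (adjusted p = 0.016) and RPL15 by -0.62 (adjusted p = 0.017). The whole library moved too: the pooled rate over 6372 genes was 2.96% ± 0.20 in MAZ, 3.03% ± 0.52 in ZMAT3 and 1.28% ± 0.04 in ZMAT5, against 1.79% ± 0.08 in NT (SD, n = 3 each). Taken relative to the pooled rate of each library, 0 members were called in any of the 3. Of all genes tested that way, 0 were called in MAZ, 2 in ZMAT3 and 0 in ZMAT5, so the count does not set the members apart. The ZMAT3 count of members was also 0 by limma, by T>C reads and without replicate 1 or replicate 3. The ZMAT5 count of members was 0 by limma and with a replicate block and 0 to 3 when 1 replicate was left out. In BRCA1, CNOT4, PHF7, ZFP36L1 and ZNF706 cells 0 members were called, where 0%, 0%, 0.174%, 0.0408% and 0.0137% of genes were. At an unadjusted p under 0.05 there were 1 member and 273 of 7034 genes in BRCA1, 28 members and 610 of 6909 genes in CNOT4, 17 and 1833 of 7483 in PHF7, 13 and 906 of 7358 in ZFP36L1, and 11 and 1377 of 7323 in ZNF706. When T>C reads were tested in place of conversions, 26 members were called lower in CNOT4 and 1 in ZFP36L1. The share of all genes called that way is not given here. That measure counts per read, and reads of the members at 0 h covered 20.2 to 21.2 T positions in CNOT4 against 23.8 to 23.9 in NT. The part of this in the 26 calls was not tested.

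No difference from NT in the decay of label was called for a member in any knockdown. For the slope over the chase 0 of 48 or 49 members were called, where 0% of genes were called in BRCA1, 0.0579% in CNOT4, 0.0402% in MAZ, 0.361% in PHF7, 0.149% in ZFP36L1, 0.654% in ZMAT3, 0.0684% in ZMAT5 and 0.0137% in ZNF706. At an unadjusted p under 0.05 there were 0, 5, 0, 2, 4, 0, 6 and 0 members in the same order, and 510 to 853 genes per arm. The members' median difference in slope ran from -0.01 log2 units per hour in MAZ to 0.04 in CNOT4. Half-lives could be compared in the members with a curve in both arms: their median log2 shift was 0.60 over 23 members in ZMAT5 (23 of 23 longer), against 0.37 over all genes, and 0.43 over 34 members in ZMAT3 (28 longer), against 0.54. In PHF7 it was 0.18 over 27 members, against 0.46, and in BRCA1 -0.02 over 20, against 0.02. It was 0.71 over 7 members in CNOT4, against 0.23, 0.06 over 14 in MAZ, against 0.33, 0.22 over 30 in ZFP36L1, against 0.14, and 0.27 over 29 in ZNF706, against 0.27. These shifts carry no test and come from curves through replicate means. In ZMAT5, curves of single replicates gave members' medians of 6.73, 13.5 and 14.9 h. In NT they gave 9.83, 9.18 and 5.72 h, and the ranges overlap. At 4 h the members' pooled T>C rate varied more between replicates in MAZ, ZMAT3 and ZNF706 cells than in NT. Its SD (n = 3) was 0.59, 0.49 and 0.43 percentage points, against 0.04 in NT and 0.01 to 0.08 in the other knockdowns. From 2 h to 4 h the mean rose in MAZ (1.82% to 2.21%), ZFP36L1 (1.06% to 1.13%) and CNOT4 (0.93% to 0.96%). It fell in the other arms. The part of this spread in the slopes and half-lives was not tested.

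Other lists of the translation machinery were read with the same fits. Of 33 small subunit mRNAs tested, 31 rose and 0 fell in ZFP36L1, 21 rose and 3 fell in CNOT4, 21 rose and 1 fell in MAZ, and 0 rose and 10 fell in PHF7. In ZMAT5 11 rose and 1 fell, in ZNF706 10 rose and 1 fell, and in ZMAT3 4 rose and 6 fell. RPS10, a protein at the mRNA entry side, was higher by 6.05 in ZFP36L1 and 4.82 in CNOT4 on all reads, and RPS9 was lower by 1.41 in PHF7. The RPS10 values on unflagged reads are not given here, and the part of multimapped reads in its rise was not tested. Of 22 other mRNAs known to carry a TOP tract, 11 rose and 4 fell in ZFP36L1, 6 rose and 7 fell in CNOT4, 1 rose and 5 fell in PHF7, 4 rose and 1 fell in MAZ, 8 rose and 0 fell in ZMAT5, 5 rose and 0 fell in ZNF706, and 1 rose and 0 fell in ZMAT3. EEF1A1 was lower by 1.34 in CNOT4 and higher by 0.46 in ZNF706. Of 26 assembly factors of the large subunit, 7 rose and 10 fell in ZFP36L1, 4 rose and 10 fell in CNOT4, and 0 rose and 5 fell in PHF7. These counts stand beside 20.9% of all genes higher and 18.9% lower in ZFP36L1, 12.6% and 14.1% in CNOT4, and 2.84% and 4.64% in PHF7. The shares were 4.78% and 3.67% in MAZ, 5.3% and 4.39% in ZMAT5, 2.9% and 2.38% in ZNF706, and 4.81% and 4.95% in ZMAT3. RRS1, which helps to load the 5S particle, was lower by 3.11 in CNOT4 and 2.44 in ZFP36L1. Of 13 factors that bind TOP mRNAs or regulate them, 1 rose and 6 fell in ZFP36L1, 1 rose and 5 fell in CNOT4, 1 rose and 2 fell in MAZ, 1 rose and 1 fell in ZMAT3, and 1 fell in each of PHF7, ZMAT5 and ZNF706. LARP1 was lower by 0.83 in PHF7, 0.46 in ZMAT5, 0.39 in ZMAT3 and 0.33 in MAZ.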

How the data were processed

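Poly(A) RNA of 108 HEK293T libraries was read with QuantSeq from the 3′ end. The authors aligned reads to hg38 with SlamDunk 0.4.3 and deposited per-library tables of 3′ UTR intervals: counts (reads, T>C reads, multimapped reads, covered T positions, conversions), CPM, and the conversion rate as a fraction of covered T positions. Multi-mapping reads were kept; for base quality, variant masking and strand, the setting is not given in the sources used here. Depth was 63659 to 30750027 reads per library; reads carry no molecular identifiers.

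From the deposited counts, 69079 intervals were summed to 19761 genes, 19501 of which GENCODE release 44 named. Level was tested with edgeR 4.0.16 (quasi-likelihood, TMM, filterByExpr; R 4.3.3) on 12 against 12 libraries adjusting for chase time as a factor. A call needed a fold over 1.2 and an adjusted p (Benjamini-Hochberg) under 0.05; label and chase dependence needed the adjusted p only. Normalised CPM are TMM-scaled. Label was tested with edgeR on conversions, with log T coverage as offset. Half-lives used a first-order curve through replicate means with R2 over 0.6 (Python 3.11.15, scipy 1.17.1). Alternatives were DESeq2 1.42.0, limma 3.58.1 (0.5 conversions added), no count filter, 1 CPM, T>C reads, unflagged reads, a replicate block, and leaving out replicates or libraries. Scripts were tested on simulated data.

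Replicate numbers share only a name: correlations of same-numbered deviations ran from -0.08 to 0.08 over 96 pairs, and 0 were over 0.1. No 2 libraries of a group agreed within sampling noise. P-values cover the spread between these replicates.

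Members and lists were chosen with earlier results of these data known. Named were, per knockdown, up to 4 members with the largest change among those called with 1 sign at all 4 times, up to 4 by p for chase dependence, up to 3 by p for label, the 5 longest and 5 shortest NT half-lives, and the 5 highest multimapped shares. RPL5, RPL8, RPL11, RPL13A, RPL15, RPL22, RPL23, RPL34, RPL36AL and RPL7L1 are also named in places outside that rule, after their values were seen. Protein sequences were not used here. Values of 1 member and 1 other gene on the lists are not reported here, though both are in the counts and medians.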

Additional observations from a re-analysis of the deposited data

Results flagged for a closer look

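The CNOT4 difference in level depended on chase time in 22 of 51 members, by a test of the interaction itself (edgeR, adjusted over 13308 genes). Of those genes, 0.571% were called. The change in the difference, 8 h minus 0 h on the log2 scale, was -3.33 for RPLP1, -5.34 for RPL3, -4.75 for RPL36A and -1.97 for RPL26. On reads not flagged as multimapped 14 members were called, where 0.404% of 12858 genes were. RPLP1 changed by -3.85 (edgeR adjusted p = 5.5e-11) and RPL26 by -1.90 (adjusted p = 3.3e-06), and RPL3 (-3.77, adjusted p = 1) and RPL36A (-2.75, adjusted p = 0.083) were not called. The 8 h CNOT4 libraries also had more T positions per read and a lower share of multimapped reads than the earlier ones. Their headers name the kind of labelling differently. The part of T positions per read and of the labelling in the result was not tested.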

How the results depend on the processing

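Over the alternatives tried, 216 of the summary values stayed within 1.5 times or the replicate spread and 36 did not; of the level values named by rule, 190 kept direction and call, 17 kept direction only and 1 turned. The causes were not tested. RPL21 in CNOT4 turned to -0.24 on unflagged reads; outside the rule, RPL13A (-1.77) and RPL39 (0.87) turned there too. With DESeq2 the level calls in BRCA1 were 2, those for chase dependence were 1 in BRCA1, 7 in ZFP36L1 and 1 in ZMAT5, and those for NT level at 8 h were 1. Without the count filter BRCA1 had 4 level calls. For these settings the share of all genes called is not given here, except that DESeq2 called 86 genes for NT level at 8 h. On unflagged reads CNOT4 had 14 calls for chase dependence. For label at 0 h, T>C reads gave 26 lower in CNOT4, 1 in ZFP36L1 and 0 in ZMAT3. Limma gave 0 in ZMAT3 and ZMAT5 and 10 for loss of label in NT. Relative to the library MAZ, ZMAT3 and ZMAT5 had 0, where 0, 2 and 0 of all genes tested were called. The NT median half-life was 11.5 h from a straight line, 13.2 h from the share of T>C reads and 11.6 h with no minimum for R2.

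With replicate numbers as a block (replicate block) the level calls were 0 in BRCA1, 35 in CNOT4, 22 in MAZ, 23 in PHF7, 42 in ZFP36L1, 15 in ZMAT3, 20 in ZMAT5 and 24 in ZNF706, and label calls at 0 h were 32 in MAZ, 24 in ZMAT3 and 0 in ZMAT5. Calls for chase dependence in CNOT4 were 22 and for loss of label in NT 21.

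Leaving out 1 replicate number or a shallow library gave 14 to 18 level calls in MAZ (14 without replicate 3), 10 to 26 in PHF7 (10 without replicate 2) and 14 to 20 in ZNF706 (14 without replicate 1). Chase dependence had 0 to 1 in BRCA1, 9 to 30 in CNOT4 (9 without replicate 1, 14 without replicate 2, 30 without the shallow 2 h replicate 3) and 0 to 1 in ZFP36L1. Label at 0 h had 22 to 26 in MAZ, 0 to 35 in ZMAT3 (0 without replicate 1 or 3) and 0 to 3 in ZMAT5, and loss of label in NT had 10 to 15. Slopes had 0 members under each alternative run; DESeq2 was not run for label. The depth of the shallow PHF7 library, 63659 reads, limits its single values.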
